A study of Homo sapiens with 4 samples.

Results

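The vascular endothelial growth factors (VEGF), their receptors and the angiopoietins were followed through 10 genes, chosen by name: the ligands VEGFA, VEGFB, VEGFC and PGF, the receptors FLT1 and KDR, the co-receptors NRP1 and NRP2, and the angiopoietins ANGPT1 and ANGPT2. They were read by 24 of the 41000 probes of the array, which named 17721 genes in all. OVSAYO, a line of ovarian clear cell carcinoma, was transfected with siRNA by lipofection in every condition and cultured for 40 h by the labels, for which a legend in the study gives another time. The cells received either a non-specific control siRNA (NS-si) or siRNA against the transcription factor Sp1 (Sp1-si). Each was left without further treatment or given 0.5 mM cobalt chloride, CoCl2, for 4 h (NS-si → CoCl2 and Sp1-si → CoCl2). CoCl2 is a chemical mimic of low oxygen, and the design asked which of its responses depend on Sp1. Each condition was 1 array, so differences between arrays carry no test and culture, array and condition cannot be told apart. The model is 1 line of tumour cells grown alone, without the endothelium on which most of these ligands act.

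VEGFA is the main growth factor for blood vessels, and its gene is a classic target of the hypoxia-inducible factors (HIF), which CoCl2 stabilises. It acts mainly through the receptor tyrosine kinase KDR (VEGFR2), while FLT1 (VEGFR1) binds VEGFA, VEGFB and PGF and can act as a trap for VEGFA. The neuropilins NRP1 and NRP2 serve as co-receptors for VEGF and also for class 3 semaphorins. ANGPT1 steadies vessels by activating the receptor TEK (TIE2), and ANGPT2 is its context-dependent antagonist.

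Sp1 binds GC boxes, and HIF binds a short core motif in hypoxia response elements. The 250 bases before the transcription start were searched for the GC box GGGCGG and for the HIF core ACGTG or GCGTG, each on both strands. Of 35116 such windows in RefSeq on GRCh38.p14, 42.6% held a GC box and 43.2% a HIF core. Of the members, 6 of 10 were in that table (VEGFB, VEGFC, PGF, FLT1, KDR and NRP2, not VEGFA, NRP1, ANGPT1 or ANGPT2), and all 6 held at least 2 GC boxes, as did 24.3% of all windows. Matches of 1 motif can share bases, as in the cytosine-rich runs of VEGFB and NRP2, and the HIF core is also part of the E-box CACGTG. A match is a description of the letters and not a bound site. NRP2 is shown as the co-receptor with the largest differences, VEGFB and PGF as the ligands with small ones, and KDR as a receptor whose probes gave no signal well above background. The capitals mark the matches, and each sequence reads 5′ to 3′ toward the start.
NRP2 (chr2:205682251-205682500, plus strand): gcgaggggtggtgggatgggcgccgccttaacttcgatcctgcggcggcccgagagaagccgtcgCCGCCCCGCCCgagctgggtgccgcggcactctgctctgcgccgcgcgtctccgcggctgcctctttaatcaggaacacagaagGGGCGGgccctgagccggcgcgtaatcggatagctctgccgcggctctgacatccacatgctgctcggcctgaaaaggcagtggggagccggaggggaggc
VEGFB (chr11:64234334-64234583, plus strand): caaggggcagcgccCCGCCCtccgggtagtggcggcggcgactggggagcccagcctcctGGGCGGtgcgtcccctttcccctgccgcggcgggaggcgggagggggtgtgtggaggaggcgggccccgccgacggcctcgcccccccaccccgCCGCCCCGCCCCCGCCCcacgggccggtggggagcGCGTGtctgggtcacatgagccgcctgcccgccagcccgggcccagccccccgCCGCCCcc
PGF (chr14:74955765-74956014, minus strand): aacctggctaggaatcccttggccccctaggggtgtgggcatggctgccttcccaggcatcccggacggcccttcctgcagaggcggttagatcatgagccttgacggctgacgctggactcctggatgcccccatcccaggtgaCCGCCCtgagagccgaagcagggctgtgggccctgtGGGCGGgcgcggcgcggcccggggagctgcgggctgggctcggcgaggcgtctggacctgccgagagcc
KDR (chr4:55125596-55125845, minus strand): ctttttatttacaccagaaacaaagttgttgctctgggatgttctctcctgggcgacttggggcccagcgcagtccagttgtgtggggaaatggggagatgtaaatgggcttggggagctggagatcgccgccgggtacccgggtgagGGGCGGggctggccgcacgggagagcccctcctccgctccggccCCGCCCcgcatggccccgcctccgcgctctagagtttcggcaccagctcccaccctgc
VEGFB held 6 GC boxes and 1 HIF core. NRP2 held 3 GC boxes, a number reached by 13.9% of all windows, and no HIF core. PGF and KDR held 2 GC boxes each and no HIF core.

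Between 30994 and 32433 of the 41000 probes were well above background on an array, and 30234 were so on all 4. The 75th percentile of the signal ran from 977 on the NS-si → CoCl2 array to 1287 on the Sp1-si → CoCl2 array. Log2 signals were therefore taken relative to this percentile, which left the median difference of all probes between -0.06 and 0.02. Without this scaling, that median was -0.21 for CoCl2 in NS-si cells, 0.21 for CoCl2 in Sp1-si cells, -0.07 for Sp1 siRNA alone and 0.33 for Sp1 siRNA with CoCl2. Sp1 itself was lower after its siRNA: the probe A_23_P366312 gave 553 in NS-si cells and 429 once CoCl2 was added, against 39.2 in Sp1-si cells and 38.7 once CoCl2 was added. Of 9 genes typical of clear cell carcinoma, each read from its brightest probe, all were well above background on the 4 arrays. CDH1 and NAPSA, 2 of the 9, were called lower with Sp1 siRNA without and with CoCl2, against 5.86% and 9.70% of all tested probes. Of 3 genes usually low in this tumour, read the same way, WT1 was well above background on no array, and ESR1 and PGR were on all 4. Other probes were dimmer: the 10-spot ESR1 probe was so on 2 arrays, and further probes of ESR1 and PGR on none. Of 10 endothelial genes, again by the brightest probe, 5, PECAM1, CDH5, EMCN, TIE1 and TEK, were so on none, and 5, VWF, CLDN5, ESAM, ROBO4 and ERG, on all 4. Further probes of VWF, ROBO4 and ERG were so on none, that of CLDN5 on 3 and that of ESAM on all 4. CLDN5, the 1 called of 5 tested, differed by -1.05 with Sp1 siRNA in CoCl2, or -0.65 without scaling, against 9.70% of all probes called lower.

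Fluorescence signals below are in arbitrary units before scaling and differences are log2 values after scaling. The SD of a difference is that between spots of a probe printed 10 times, and for a probe with 1 spot it is borrowed from 10-spot probes of like brightness. It covers the printing and reading of an array, not the spread between cultures. A difference of at least 1 in size is called, and levels of different probes are not comparable.

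Of the 24 member probes, 15 were well above background on all 4 arrays and 7 on none. The 15 covered VEGFA (4 probes), VEGFB (2), PGF (1), FLT1 (1), NRP1 (3) and NRP2 (4). KDR, VEGFC and ANGPT1 had no probe well above background on any array.

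**Figure D1:**
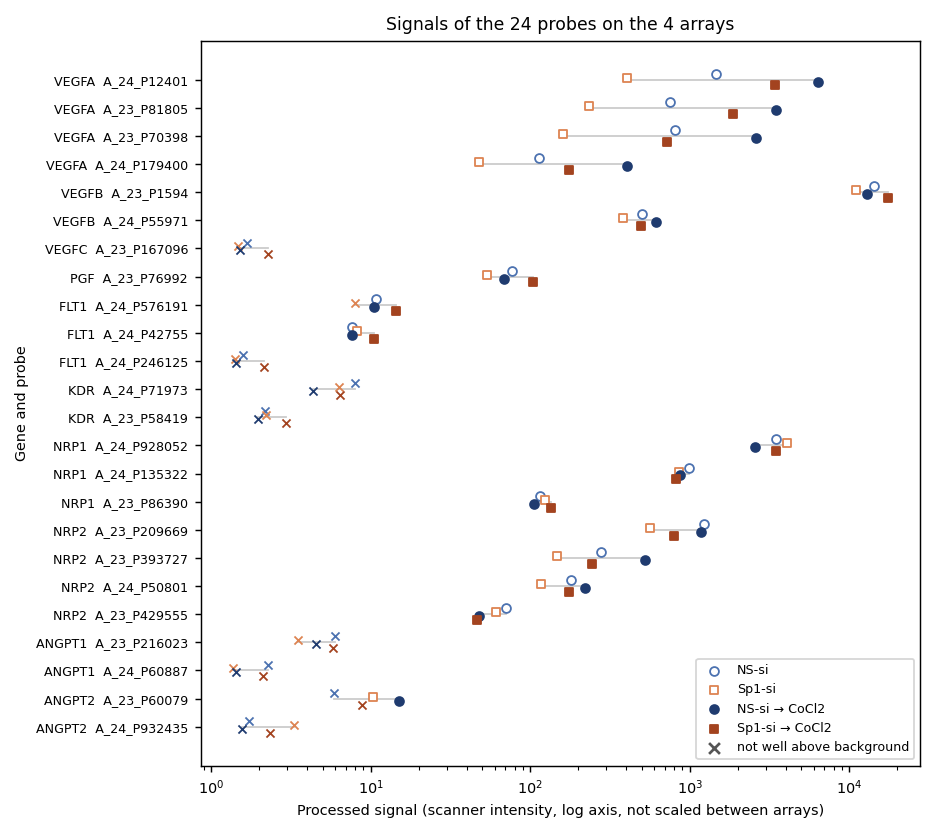
Unscaled processed signal (log axis, scanner intensity) of the 24 member probes, with circles for NS-si and squares for Sp1-si, filled with CoCl2, and crosses where the probe was not well above background. The 4 VEGFA probes were highest in NS-si → CoCl2 and lowest in Sp1-si, and VEGFC, KDR and ANGPT1 show crosses only.

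VEGFA, the vessel growth factor itself, was the member with the largest differences: CoCl2 raised all 4 of its probes, and Sp1 siRNA lowered all 4, whether CoCl2 was present or not. On A_23_P81805, the probe printed 10 times, spots averaged 752 in NS-si cells and 3475 once CoCl2 was added, against 235 in Sp1-si cells and 1859 once CoCl2 was added. The spots of this probe ran from 702 to 802, 3245 to 3674, 217 to 249 and 1725 to 1977 in the same order. The spot ranges of no 2 arrays overlapped, which reflects the printing and reading of an array, not the spread between cultures. Whether other probes separated the arrays as well was not tested. CoCl2 alone gave the highest level and Sp1 siRNA alone the lowest.

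With CoCl2, A_23_P81805 was higher by 2.43 (SD 0.073), or 5.40-fold, in NS-si cells, and by 2.76 (SD 0.081), or 6.76-fold, in Sp1-si cells. Sp1 siRNA gave a difference of -1.62 (SD 0.082), or 3.08-fold lower, without CoCl2. With CoCl2 its difference was -1.30 (SD 0.073), or 2.46-fold lower. The level left after Sp1 siRNA and CoCl2 was still 1.13 (SD 0.077) above that of untreated NS-si cells. VEGFA was raised by CoCl2 in the Sp1-si cells too, from a lower start to a lower end.

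The other 3 VEGFA probes were highest with CoCl2 in NS-si cells and lowest with Sp1 siRNA alone as well. A_24_P12401, annotated to the same transcript as A_23_P81805, gave 1469 in NS-si cells and 6344 once CoCl2 was added, against 403 in Sp1-si cells and 3422 once CoCl2 was added. Its CoCl2 differences were 2.34 for NS-si and 2.86 for Sp1-si cells, and its Sp1 siRNA differences -1.81 without and -1.29 with CoCl2. This probe and A_23_P81805 thus placed the 4 conditions in the same order.

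The remaining pair of VEGFA probes is annotated to another VEGFA transcript. A_23_P70398 gave 804 in NS-si cells and 2597 once CoCl2 was added, against 162 in Sp1-si cells and 718 once CoCl2 was added. Its CoCl2 difference was 1.92 in both NS-si and Sp1-si cells, and its Sp1 siRNA difference was -2.26 without and -2.25 with CoCl2. On this probe the treated Sp1-si cells ended below untreated NS-si cells, by a difference of -0.34 (SD 0.079), whereas the other 3 VEGFA probes ended above them.

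A_24_P179400, the dimmest VEGFA probe, gave 114 in NS-si cells and 403 once CoCl2 was added, against 47.8 in Sp1-si cells and 175 once CoCl2 was added. Its differences were 2.05 and 1.64 for CoCl2 in NS-si and Sp1-si cells, and -1.20 and -1.60 for Sp1 siRNA without and with CoCl2. With normexp background correction the call for CoCl2 in Sp1-si cells (0.88) and that for Sp1 siRNA without CoCl2 (-0.64) were lost on this probe alone.

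Whether Sp1 siRNA altered the size of the CoCl2 response was read from the gap, the CoCl2 difference in Sp1-si cells minus that in NS-si cells. For VEGFA the gap was 0.52 (SD 0.10) on A_24_P12401, 0.32 (SD 0.11) on A_23_P81805, 0.01 (SD 0.11) on A_23_P70398 and -0.40 (SD 0.15) on A_24_P179400. Without scaling it was 0.98, 0.78, 0.46 and 0.05 on the same probes, beside a median gap of 0.44 over all probes. The sign of the gap therefore differed among the VEGFA probes after scaling but not without it. The level reached with CoCl2 was lower after Sp1 siRNA on all 4 VEGFA probes. Without scaling, the differences with CoCl2 were -0.89 on A_24_P12401, -0.90 on A_23_P81805, -1.86 on A_23_P70398 and -1.20 on A_24_P179400, so the first 2 dropped below the threshold.

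VEGFB, a ligand of FLT1, was read by a bright and a dimmer probe, and neither had a called difference. A_23_P1594 gave 14302 in NS-si cells and 12913 once CoCl2 was added, against 10999 in Sp1-si cells and 17452 once CoCl2 was added. After scaling, CoCl2 differed by 0.08 in NS-si cells, which turned to -0.15 without scaling, and by 0.44 in Sp1-si cells. The steps between the 3 upper scaled levels, 0.04 and 0.08, did not exceed 2 SD, and Sp1-si alone was the low array.

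On A_24_P55971 VEGFB gave 501 in NS-si cells and 611 once CoCl2 was added, against 385 in Sp1-si cells and 496 once CoCl2 was added. Here NS-si → CoCl2 was the high array, with a CoCl2 difference of 0.51 (SD 0.081) for NS-si and 0.14 for Sp1-si cells. Sp1 siRNA differed by -0.33 without and -0.70 with CoCl2. Both VEGFB probes were lower with Sp1 siRNA alone, and their values with CoCl2 did not have the same order.

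PGF, placental growth factor and another FLT1 ligand, gave 76.6 in NS-si cells and 68.9 once CoCl2 was added, against 53.8 in Sp1-si cells and 104.7 once CoCl2 was added. CoCl2 differed by 0.07 in NS-si cells, or -0.15 without scaling, and by 0.73 in Sp1-si cells. The gap was 0.66 (SD 0.18), and 1.11 without scaling, the largest positive gap among the 15 probes measured on all arrays. The Sp1-si array was the low one. The steps from NS-si up to NS-si → CoCl2 and on to Sp1-si → CoCl2, 0.07 and 0.21, did not exceed 2 SD each. Sp1-si → CoCl2 stood 0.28 (SD 0.12) above NS-si, which exceeded 2 SD, or 0.45 without scaling. VEGFC, the ligand of lymphatic vessel growth, was on no array well above background, with signals of 1.47 to 2.26.

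Among the receptors, FLT1 was read near background. A_24_P42755 gave 7.69 in NS-si cells and 7.63 once CoCl2 was added, against 8.19 in Sp1-si cells and 10.51 once CoCl2 was added. Its differences lay between 0.06 and 0.22 with SDs of 0.40 to 0.47, so no order of the arrays could be read. On A_24_P576191 the signals were 10.8 in NS-si cells and 10.6 once CoCl2 was added, against 7.98 in Sp1-si cells and 14.4 once CoCl2 was added.

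On that FLT1 probe the Sp1-si array alone was not well above background, so CoCl2 in Sp1-si cells gave an at least 1.55-fold higher signal and Sp1 siRNA alone an at least 1.30-fold lower one. Both bounds were smaller than 2 SD on the log2 scale, with an SD of 0.38 to 0.43 for such dim probes. The third FLT1 probe, A_24_P246125, was on no array well above background. KDR, the main signalling receptor for VEGFA, had signals of 4.38 to 7.93 on A_24_P71973 and 1.97 to 2.93 on A_23_P58419, none well above background.

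The co-receptor NRP2 was the other member with probes called for Sp1 siRNA. A_23_P209669 gave 1222 in NS-si cells and 1176 once CoCl2 was added, against 564 in Sp1-si cells and 794 once CoCl2 was added. Both Sp1-si arrays were the low ones, with a difference of -1.06 (SD 0.079) without CoCl2 and -0.96 with it. Without scaling these were -1.12 and -0.57. CoCl2 differed by only 0.17 in NS-si cells, which turned to -0.06 without scaling, and by 0.27 in Sp1-si cells.

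A_23_P393727, annotated to the same NRP2 transcript, gave 279 in NS-si cells and 522 once CoCl2 was added, against 147 in Sp1-si cells and 245 once CoCl2 was added. Here NS-si → CoCl2 stood above the other arrays, with a CoCl2 difference of 1.13 (SD 0.081) for NS-si and 0.50 (SD 0.097) for Sp1-si cells. The first fell under the threshold without scaling, to 0.90, and with normexp. Sp1 siRNA differed by -0.86 without CoCl2 and by -1.49, or 2.81-fold lower, with it. The gap of -0.63 (SD 0.13) was the largest negative gap of the members and was -0.17 without scaling.

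The other NRP2 probes, annotated to other transcripts, had no called difference. A_24_P50801 gave 182 in NS-si cells and 220 once CoCl2 was added, against 117 in Sp1-si cells and 174 once CoCl2 was added, lower by 0.58 to 0.73 in log2 with Sp1 siRNA and higher by 0.35 to 0.50 with CoCl2. A_23_P429555 gave 71.0 in NS-si cells and 47.5 once CoCl2 was added, against 60.7 in Sp1-si cells and 46.6 once CoCl2 was added. On this probe the CoCl2 arrays were the low ones, with differences of -0.36 for NS-si and -0.61 for Sp1-si cells. The Sp1 siRNA differences of A_23_P429555 were -0.17 (SD 0.12) without CoCl2, within 2 SD, and -0.42 with it, which was -0.03 without scaling. Among the 4 NRP2 probes the CoCl2 differences had both signs.

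NRP1, the co-receptor that binds VEGFA in endothelium, had no called difference on 3 probes. A_24_P928052 gave 3494 in NS-si cells and 2558 once CoCl2 was added, against 4092 in Sp1-si cells and 3455 once CoCl2 was added. Its scaled levels were highest in Sp1-si, with CoCl2 differences of -0.22 for NS-si and -0.47 for Sp1-si cells. On A_24_P135322 the signals were 989, 873, 852 and 817 in the same order of conditions, and Sp1-si → CoCl2 was the low array by -0.49 against NS-si → CoCl2, or -0.10 without scaling.

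A_23_P86390, the dimmest NRP1 probe, gave 115 in NS-si cells and 106 once CoCl2 was added, against 124 in Sp1-si cells and 136 once CoCl2 was added, and no step between neighbours in order exceeded 2 SD. The Sp1 siRNA values of NRP1 lay between -0.49 and 0.28 and those of NRP2 between -1.49 and -0.17, ranges that overlap, and a difference between the genes was not tested.

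**Figure D2:**
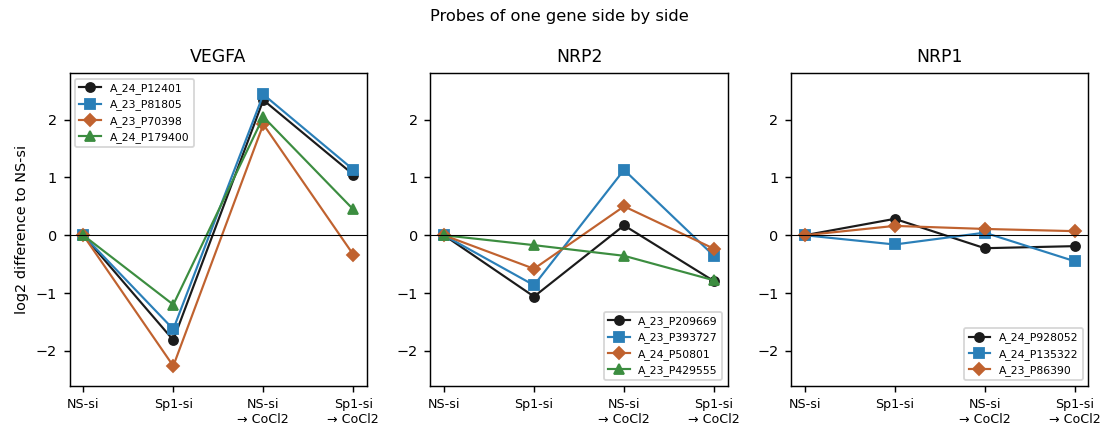
Scaled log2 difference to NS-si of each probe of VEGFA, NRP2 and NRP1 across the 4 conditions, 1 line per probe. The 4 VEGFA lines run lowest in Sp1-si and highest in NS-si → CoCl2, the NRP2 lines differ among probes after CoCl2 (where A_23_P209669 at 0.17 turned to -0.06 without scaling), and the NRP1 lines stay between -1 and 1.

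ANGPT2, the TEK antagonist, was well above background on some arrays only. A_23_P60079 gave 5.85 in NS-si cells and 15.2 once CoCl2 was added, against 10.3 in Sp1-si cells and 8.79 once CoCl2 was added, of which the 10.3 and the 15.2 were well above background. NS-si → CoCl2 was the high array. CoCl2 in NS-si cells gave an at least 2.40-fold higher signal, or 1.26 (SD 0.47) in log2, which was 0.45 with normexp.

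For the same ANGPT2 probe, Sp1 siRNA gave an at least 1.45-fold higher signal without CoCl2 and an at least 1.95-fold lower signal with it. CoCl2 in Sp1-si cells gave an at least 1.18-fold lower signal, or -0.24 in log2, which was -0.01 without scaling. Each bound of this probe rested on 1 array of the pair being well above background, so its direction was fixed in advance. Only the CoCl2 bound in NS-si cells and the Sp1 siRNA bound with CoCl2 exceeded 2 SD after scaling. The latter, -0.97 (SD 0.38) in log2, was -0.57 both without scaling and with normexp. The second ANGPT2 probe, A_24_P932435, was on no array well above background. ANGPT1, the TEK agonist, had signals of 3.48 to 5.98 on A_23_P216023 and 1.38 to 2.26 on A_24_P60887, none well above background.

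**Figure D3:**
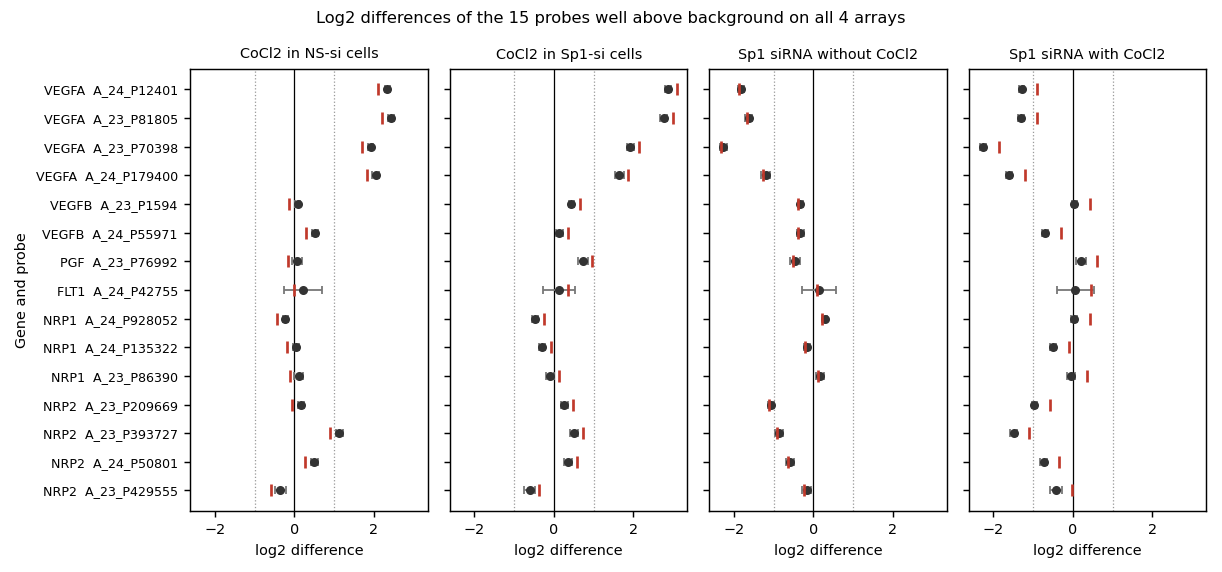
Scaled log2 differences (points, with bars of 1 SD between spots) of the 15 member probes well above background on all 4 arrays, with red ticks for the value without scaling and dotted lines at -1 and 1. VEGFA points lie beyond the lines in every panel, and without scaling A_24_P12401 (-0.89) and A_23_P81805 (-0.90) fall inside them for Sp1 siRNA with CoCl2.

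Counted over probes, 6 of 17 tested member probes were called higher with CoCl2 in NS-si cells (4 of VEGFA, 1 of NRP2 and 1 of ANGPT2), against 4.54% of all tested probes. The ANGPT2 probe was tested only through the NS-si → CoCl2 array, where it was high, so its bound could not have been lower. None was called lower, against 4.34%. In Sp1-si cells 4 of 17 were called higher with CoCl2, all VEGFA, against 3.68%, and none lower, against 6.22%. Probes of 1 gene are not independent, and outside VEGFA the CoCl2 count was 2 probes under control siRNA, 1 of them that ANGPT2 bound, and 0 under Sp1 siRNA.

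With Sp1 siRNA alone, 5 of 17 were called lower (4 of VEGFA and 1 of NRP2), against 5.86% of all tested probes, and none higher, against 5.51%. With CoCl2 present, 5 of 17 were again lower (4 of VEGFA and another NRP2 probe), against 9.70%, and none higher, against 6.29%. No gap was called, against 1.04% higher and 4.90% lower among all probes. Without VEGFA, 1 member probe was called in each Sp1 siRNA comparison. Without scaling, the share of higher calls among all calls for Sp1 siRNA with CoCl2 moved from 39.4% to 76.1%, and for CoCl2 from 51.1% to 28.3% in NS-si and from 37.2% to 63.3% in Sp1-si cells. For the gap it moved from 17.5% to 84.5%.

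The median of the 15 member probes well above background on all arrays was 0.22 for CoCl2 in NS-si cells, where 13 of 15 lay above 0, against 0.02 and 52.1% over all 30234 such probes. Without scaling it was -0.01 with 7 of 15 above 0, against -0.21 and 30.6% over all. For CoCl2 in Sp1-si cells the member median was 0.35 with 11 of 15 above 0, against -0.02 and 48.1% over all, and without scaling 0.57 with 12, against 0.21 and 67.5%. For Sp1 siRNA the member medians were -0.45 without and -0.70 with CoCl2, where 3 and 4 of 15 lay above 0, against -0.01 with 48.6% and -0.06 with 45.7% over all probes. Without scaling they were -0.51 and -0.30, with 3 and 5 of 15 above 0. Over all probes the values were then -0.07 with 42.9% and 0.33 with 70.8%. The 15 include the 4 VEGFA probes, which lay at the ends of the distribution. In NS-si cells the VEGFA probes ranked 57, 74, 149 and 190 from the top of 30234 for CoCl2, and in Sp1-si cells 45, 47, 173 and 289. For Sp1 siRNA without CoCl2 they ranked 112, 276, 396 and 976 from the bottom, and with CoCl2 179, 809, 1531 and 1571.

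**Figure D4:**
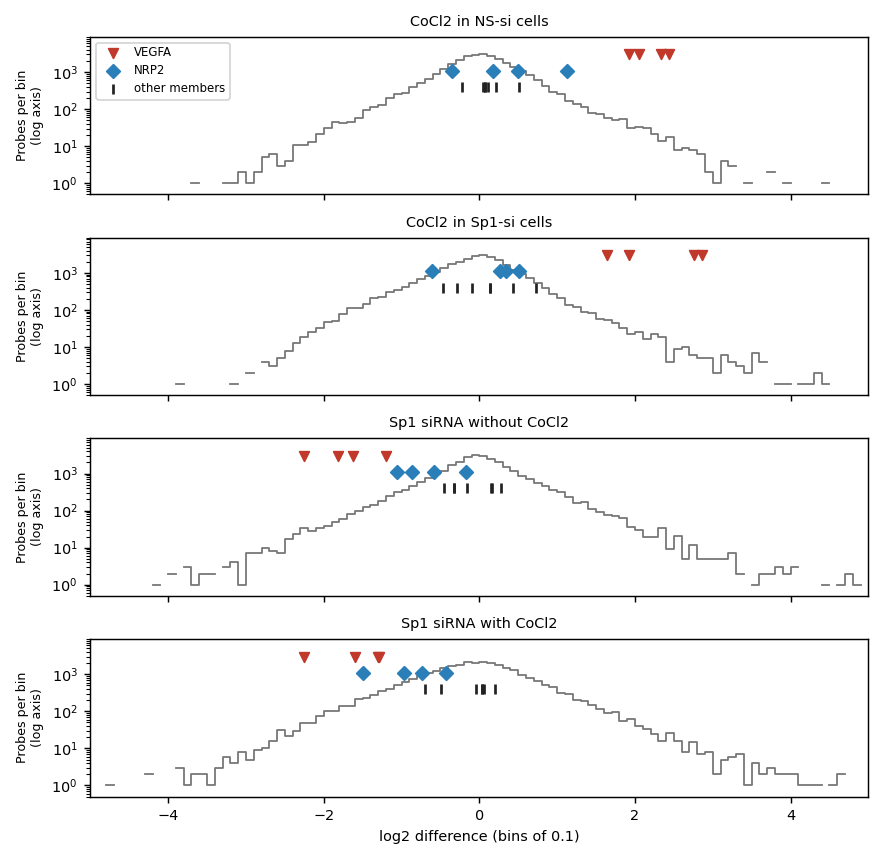
Probes per bin (log axis) by scaled log2 difference for 30234 probes (those well above background on each array), with the 15 member probes as marks whose height carries no value. The VEGFA marks lie to the right of 1 with CoCl2 and to the left of -1 with Sp1 siRNA, and the marks of members other than VEGFA and NRP2 lie between -1 and 1.

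The pattern of VEGFA, called higher with CoCl2 in both kinds of cells and lower with Sp1 siRNA both without and with CoCl2, was counted over the array after its values had been seen. Of 30234 probes, 605 were raised by CoCl2 in both, 1069 were lower with Sp1 siRNA in both, and 56, or 0.185%, did both. These 56 carried 32 gene symbols, of which AKR1B10, DNAJB4, ERO1A and IGFBP3 had 2 probes each and VEGFA 4. No other member was among them. Without scaling 38 probes did both, 2 of them VEGFA, and with normexp 29, 3 of them VEGFA.

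Among the genes of nearest profile to VEGFA A_23_P81805, by Euclidean distance over the 4 scaled log2 levels centred on their mean, were DNAJB4 (0.31), ETS1 (0.32), ERO1A (0.39) and PAQR5 (0.50). The other VEGFA probes lay at 0.13, 0.83 and 1.05, so that the profile of some genes was nearer than that of another VEGFA probe. A further probe of DNAJB4 lay at 0.39 and one of ERO1A at 0.97, whereas further ETS1 probes lay at 0.89 to 1.29.

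Other ligands and receptors of the axis were read from the brightest probe of each gene. Of VEGFD, FLT4, ANGPT4, TEK and TIE1, 3 were bright enough to be compared, and 1 of them was called, higher with CoCl2 in NS-si cells, against 4.54% of all tested probes. VEGFD, a further ligand of lymphatic growth, gave 171 in NS-si cells and 321 once CoCl2 was added, against 165 in Sp1-si cells and 268 once CoCl2 was added. The CoCl2 arrays were the high ones, with differences of 1.13 for NS-si, which was 0.91 and no longer called without scaling, and 0.48 for Sp1-si cells.

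Of 12 class 3 semaphorins and plexins, the neuropilin ligands and their signalling partners, 1 of 12 tested was called lower with Sp1 siRNA alone, against 5.86% of all probes, and 2 of 10 tested with CoCl2 present, against 9.70%. For CoCl2 in NS-si cells 1 of 11 tested was lower, against 4.34%. For CoCl2 in Sp1-si cells 2 of 11 were lower, against 6.22%, and 1 higher, against 3.68%. PLXND1, a plexin of vessel patterning, gave 4067 in NS-si cells and 3563 once CoCl2 was added, against 364 in Sp1-si cells and 579 once CoCl2 was added. Both Sp1-si arrays were low, by differences of -3.43 and -3.02, and a second PLXND1 probe gave -1.93 and -2.36. SEMA3D differed by -1.52 with Sp1 siRNA in CoCl2 and by -1.25 with CoCl2 in Sp1-si cells. SEMA3A differed by -1.02 with CoCl2 in NS-si cells. Its difference in Sp1-si cells was -1.002, which was -0.77 without scaling and -0.69 on a second probe. SEMA3B was higher with CoCl2 by 1.07 in Sp1-si cells.

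Of the factors that act on VEGFA, the mRNA of HIF1A differed by -0.29 and -0.17 with CoCl2 under control and Sp1 siRNA, and by 0.65 and 0.78 with Sp1 siRNA without and with CoCl2. EPAS1 (HIF-2 alpha) differed by 0.24 and 0.26 with CoCl2 and by -0.48 and -0.46 with Sp1 siRNA, of which the values 0.24, 0.26 and -0.46 were 0.02, 0.49 and -0.06 without scaling. Neither was called after scaling, but without scaling the HIF1A value for CoCl2 under Sp1 siRNA turned to 0.06 and that for Sp1 siRNA with CoCl2 passed the threshold at 1.17. SP3, a relative of Sp1 that binds the same boxes, differed by 1.22 with Sp1 siRNA alone and by 0.85 with CoCl2, while a second SP3 probe gave 0.18 and -0.62. HIF is regulated largely through protein stability, which these arrays do not measure.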

How the data were processed

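RNA of OVSAYO cells under 4 conditions was measured on 4 Agilent whole human genome arrays, 1 per condition. The authors deposited the spot intensities written by Agilent Feature Extraction 10.5.1.1, with background subtraction and detrending per the file headers, and were not normalized between arrays. The authors' deposited value table held the same intensities times 1 constant per array, so that its scale is known and its centring is not stated. It was used as an alternative.

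Here, the log2 processed signals of non-control spots were lowered by the 75th percentile of their array and averaged over the spots of a probe, without outlier spots. A probe counted as well above background when 50% or more of its spots did, by the deposited 0 or 1 calls of the software. Symbols were assigned through RefSeq accessions of GRCh38.p14, which named 26222 of 27600 such probes. A log2 difference of at least 1 in size was called. Where only 1 array of a pair was well above background, a bound was used. The spread of a difference came from 10-spot probes, for other probes from the 51 of nearest signal. Named were all member probes, the genes of fixed lists that passed the threshold and were well above background on all 4 arrays, and the 5 nearest profiles to VEGFA, of which 1 is not reported here. The members and lists were chosen with earlier results of these data known. With 1 array per condition no p-value was computed, and precision is limited by the number of arrays. Alternatives were other scalings, filters, thresholds, a gene mean, outlier spots kept, and normexp (offset 50). The counting was tested on simulated data. Tools were Python 3.11.15, numpy 2.4.6, pandas 2.3.3, matplotlib 3.10.9, R 4.3.3 and limma 3.58.1.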

Additional observations from a re-analysis of the deposited data

How the results depend on the processing

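Of the 10 counts of member probes past the threshold, that of probes lower with Sp1 siRNA in CoCl2 moved most, from 5 to 3 without scaling, 9 at a threshold of 0.58 and 2 at a threshold of 1.5. Without scaling, 1 probe (PGF) had a gap between the CoCl2 differences above 1. At a threshold of 0.58, 1 probe was lower with CoCl2 in Sp1-si cells, and the gap passed for 1 probe upwards and 1 downwards. At 1.5, 3 probes in place of 5 were lower with Sp1 siRNA alone. With no filter on dim probes, 1 probe was higher with Sp1 siRNA alone and 1 had a lower gap. With the mean over the probes of a gene, only VEGFA passed, which gave 1 gene for CoCl2 in NS-si cells, 1 for CoCl2 in Sp1-si cells, and 1 lower with Sp1 siRNA both without and with CoCl2. The causes were not tested. No called value of a member probe reversed its sign under any scaling, the authors' value table, normexp or with outlier spots kept. In the mean over the probes of a gene, the ANGPT2 value for CoCl2 in NS-si cells was -0.38, but its sign cannot be read. The lowest signal well above background stood in there for the dim NS-si level, and it lay above the treated mean. On the single ANGPT2 probes the differences without a bound were 1.60 and 0.09, from signals partly or wholly near background. Of 83 values of single probes, 58 moved by more than the spread between spots without scaling, 26 under median scaling, 8 under quantile normalization, 8 on the authors' table, and 0 with outlier spots kept or with the percentile taken only over the probes bright on all 4 arrays. Normexp on median signals, which was added after the data had been seen since the files hold no mean signal, moved 33 and left 48 the same. It gave no value for the bounds of the FLT1 probe A_24_P576191. The planned normexp on mean signals and a slide block were not run. No paired analysis was possible because each condition had 1 array. Signal over background limits the values of FLT1, KDR, VEGFC and the angiopoietins.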

Other observations

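Other growth factors and inhibitors of vessels were read from the brightest probe of each gene. Of 14 other angiogenic factors, 2 of 14 tested were called higher with CoCl2 under control siRNA, against 4.54% of all tested probes. Under Sp1 siRNA 3 of 13 were higher, against 3.68%, and 1 was lower, against 6.22%. With Sp1 siRNA alone 2 of 13 were higher, against 5.51%, and 1 lower, against 5.86%, and with CoCl2 present 4 of 14 were higher, against 6.29%, and 1 lower, against 9.70%. ADM, adrenomedullin, a vessel-dilating peptide, differed by 2.77 and 3.58 with CoCl2 in NS-si and Sp1-si cells and by -1.45 and -0.64 with Sp1 siRNA without and with CoCl2. PDGFB, a growth factor for pericytes, differed by 1.48 and 1.55 with CoCl2 in NS-si and Sp1-si cells, and EFNA1, an ephrin ligand, by 0.85 and 1.47. A second EFNA1 probe gave 0.93 and 1.62. EDN1, endothelin 1, differed by -0.96 and -2.20 with CoCl2 in NS-si and Sp1-si cells. Its Sp1 siRNA difference was -0.09 without CoCl2 and -1.33 with it, and the latter was -0.93 without scaling. FGF2, fibroblast growth factor 2, was higher with Sp1 siRNA by 1.66 without and 1.83 with CoCl2, and PDGFA, another platelet-derived factor, by 1.52 and 1.45. With CoCl2 present, Sp1 siRNA also gave 1.58 for EPHB4, an ephrin receptor, and 1.02 for ANG, angiogenin, beside 0.91 and 0.89 without CoCl2. Of 5 inhibitors of vessel growth, 2 of 4 tested were higher with Sp1 siRNA without and with CoCl2, against 5.51% and 6.29% of all tested probes. These were SERPINF1 (2.31 and 2.25) and VASH1 (1.33 and 1.93).

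Of 18 genes of signalling below the VEGF receptors, all well above background, none was called with CoCl2 in NS-si cells, against 4.54% higher and 4.34% lower over all probes. In Sp1-si cells 1 was higher, against 3.68% of all probes. With Sp1 siRNA alone 3 were higher, against 5.51%, and 1 lower, against 5.86%, and with CoCl2 present 3 were higher, against 6.29%. MAPK3, the kinase ERK1, differed by 1.77 without and 2.35 with CoCl2, and PLCG1, a phospholipase bound by KDR, by 1.105 and 1.47. Of the protein kinases C, PRKCA differed with Sp1 siRNA by 1.22 without and 0.98 with CoCl2, while its 10-spot probe gave -0.64 and -0.09. PRKCB differed by -1.17 and -0.83. PTPRB, a phosphatase of vessels, differed by 1.04 both with CoCl2 in Sp1-si cells and with Sp1 siRNA in CoCl2. It differed by 0.08 both with CoCl2 in NS-si cells and with Sp1 siRNA alone. A second PTPRB probe gave 0.73 with CoCl2 in Sp1-si cells and 1.48 with Sp1 siRNA in CoCl2. That probe gave -0.21 with CoCl2 in NS-si cells and 0.53 with Sp1 siRNA alone. Of 7 angiopoietin-like genes, 1 of 4 tested was called higher with CoCl2 in NS-si cells, against 4.54% of all probes, and 1 of 3 lower in Sp1-si cells, against 6.22%. The first was ANGPTL4, tested only through the 1 array where it was bright, with a bound of at least 1.22, which was 0.996 without scaling. ANGPTL1 differed with CoCl2 by -0.92 under control siRNA and -1.20 under Sp1 siRNA, and by -1.14 and -0.97 without scaling, so that the call moved from the Sp1-si to the NS-si cells. Of 7 regulators of VEGFA mRNA, 1 was called, higher with CoCl2 in NS-si and Sp1-si cells, against 4.54% and 3.68% of all probes. This was ZFP36, a decay factor, which differed by 1.58 and 2.26. These lists were chosen with earlier results of these data known, and the differences have no replicate check.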
